A study of Rattus norvegicus with 6 samples.

Results

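Neuropeptide Y (Npy), 3 of its receptors (Npy1r, Npy2r and Npy5r) and the peptidase Dpp4 were followed in rat mammospheres, which are clusters that single mammary cells form in suspension when they cannot attach to the dish. These are 5 of the 14217 genes that the array's annotation ties to at least 1 probe set of their own. Npy was selected on its log2 change between the groups of these same arrays, and the receptors and Dpp4 because they act on the same peptide. Each gene is represented by its brightest probe set, which was chosen by the mean log2 signal over the 6 arrays.

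The hCG group comprised 3 arrays of spheres from female Sprague Dawley rats injected with recombinant human chorionic gonadotropin at 100 IU per day. This pregnancy hormone binds the luteinizing hormone receptor of the ovary. The Control group comprised 3 arrays of spheres from rats of the same strain and sex that were given phosphate buffered saline. In both groups injections began at 55 days of age and lasted 21 days, mammary glands were removed 21 days after the final injection, and epithelium-enriched cells then grew for 7 days in medium with EGF, basic FGF and heparin. The arrays carry the numbers 5, 6 and 7 in each group, and nothing states that each one is a separate animal.

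Neuropeptide Y is a short, amidated signalling peptide stored in granules of sympathetic nerve endings and of many neurons, and in rodents also in megakaryocytes. It is cut from a precursor by prohormone convertases, trimmed by carboxypeptidases and amidated, and it acts on G protein-coupled receptors that lower cyclic AMP. Dpp4, a serine peptidase of the cell surface, removes the first residues of the peptide, which then no longer activates the Npy1r receptor but still activates those encoded by Npy2r and Npy5r. In human breast cancer cells NPY1R is a known estrogen-induced gene.

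Of the 5 genes, only Npy and Npy1r gave clear signal in the spheres. Npy was lower on all 3 hCG arrays than on any Control array, while Npy1r had a higher mean on hCG arrays that did not pass the test. The probe sets of Npy2r, Npy5r and Dpp4 lay near the floor of the arrays in both groups. Therefore 2 of the members were among the 18625 probe sets tested, and 3 were among the dimmest 40% of probe sets, with a mean log2 value below 2.67.

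The bases upstream of the annotated starts of Npy and Npy1r are shown because these are the members whose signal varied between arrays. Both come from RefSeq, build GRCr8, which serves here for sequence and gene order alone. The Npy stretch is chr4:80211861-80212110 on the plus strand and that of Npy1r is chr16:27813388-27813637 on the minus strand, each written 5′ to 3′ and ending just before the start.
Npy: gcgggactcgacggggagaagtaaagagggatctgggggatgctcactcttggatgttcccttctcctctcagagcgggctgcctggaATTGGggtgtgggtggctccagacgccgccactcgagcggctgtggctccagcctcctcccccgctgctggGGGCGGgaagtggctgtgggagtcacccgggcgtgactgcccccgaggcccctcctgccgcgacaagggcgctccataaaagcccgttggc
Npy1r: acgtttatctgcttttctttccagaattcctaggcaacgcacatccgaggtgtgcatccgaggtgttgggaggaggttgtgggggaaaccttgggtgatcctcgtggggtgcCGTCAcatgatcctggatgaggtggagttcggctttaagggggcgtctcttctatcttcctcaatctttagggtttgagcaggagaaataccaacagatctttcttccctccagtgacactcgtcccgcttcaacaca
Capitals mark matches, on either strand, to the motifs searched. These were the cAMP response element TGACGTCA and its core TGACG (which every full element contains), the GC box GGGCGG, the AP-1 site TGANTCA, the TATA box TATAAA, the CCAAT box and the E-box CACGTG. The Npy stretch held 1 GC box, 91 bases before the start, and 1 CCAAT box on the reverse strand, 162 bases before it. A GC box occurs in 30.5% and a CCAAT box in 34.0% of 33469 rat promoters of the same length. The Npy1r stretch held 1 cAMP response element core on the reverse strand, 138 bases before the start, which 18.2% of promoters have. GC content was 67.6% upstream of Npy and 51.6% upstream of Npy1r, beside a median of 51.2% over all promoters.

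Npy, the ligand, was measured by 1 probe set (1387154_at). Its log2 signal was 3.88, 5.68 and 4.52 on hCG arrays 5, 6 and 7, against 7.85, 7.84 and 7.04 on Control arrays 5, 6 and 7. The groups did not overlap, as in 29.3% of the tested probe sets, and 1.36 log2 units lay between the highest hCG array, hCG 6, and the lowest Control array, Control 7. The hCG arrays also differed more among themselves, over a range of 1.80 log2 units, against 0.80 among Control arrays.

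**Figure D1:**
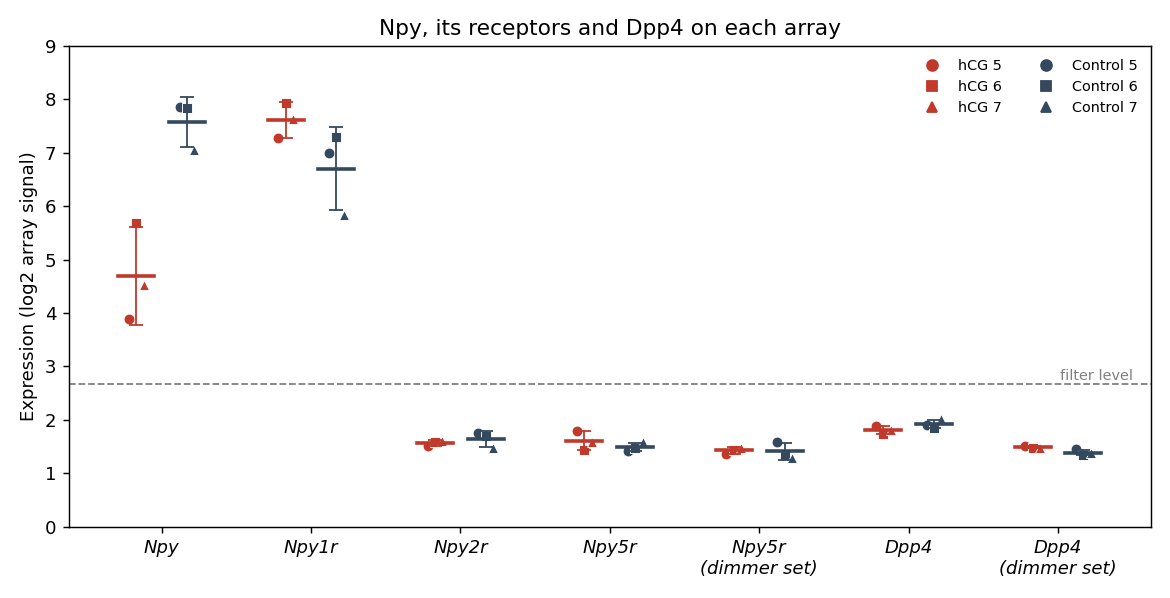
Log2 array signal of the 7 probe sets of the 5 genes, with hCG arrays in red and Control arrays in dark blue; point shape gives the array number, bars the mean and SD (n = 3 arrays per group), and the dashed line the filter level of 2.67. Npy is separated between the groups, Npy1r overlaps, and the other 5 probe sets lie below the line on every array.

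Mean Npy signal was 4.69 ± 0.91 in hCG spheres and 7.58 ± 0.46 in Control spheres (SD, n = 3 each). The log2 change was -2.89 (SE 0.46), which is a 7.39-fold lower signal in hCG spheres. Of the 18625 probe sets tested, 4 had a larger fall. With limma's moderated test, adjusted by Benjamini-Hochberg, 298 of these probe sets (1.60%) were called, 147 lower (0.789%) and 151 higher (0.811%) in hCG spheres, and Npy is among the lower ones (adjusted p = 0.0432). Since Npy was chosen for this fall, the values describe it and nothing further is read from the call. With 1 array left out in turn, the change lay between -3.38 (without hCG 6) and -2.48 (without hCG 5). The call was lost without hCG 5, hCG 7, Control 5 or Control 6 (limma adjusted p 0.125, 0.210, 0.108 and 0.131). In each of these settings 0 of the 18625 probe sets were called, so the loss is not particular to Npy. In bulk RNA, fewer cells that contain Npy and less Npy RNA per cell cannot be told apart.

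Npy1r, the receptor that responds to the intact peptide, was also measured by 1 probe set (1390828_at), for which the annotation lists an expressed sequence tag. Its log2 signal was 7.27, 7.93 and 7.64 on hCG arrays 5, 6 and 7, against 6.99, 7.29 and 5.83 on Control arrays 5, 6 and 7. The groups overlapped by 0.021 log2 units, since Control 6 lay just above hCG 5. The lowest value of all was that of Control 7.

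Mean Npy1r signal was 7.61 ± 0.33 in hCG spheres and 6.70 ± 0.77 in Control spheres (SD, n = 3 each). The log2 change was 0.91 (SE 0.38, 95% interval 0.019 to 1.80), a 1.88-fold higher mean signal, which limma's test did not call (adjusted p = 0.211, unadjusted p = 0.0464). An unadjusted p under 0.05 was common on these arrays, at 22.9% of the tested probe sets. Without Control 7 the change was 0.47, and without Control 6 it was 1.20. Adjusted p lay between 0.201 and 0.442 with 1 array left out in turn.

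Set against each other, the ligand and its receptor differed in opposite directions between the group means, but varied alike among arrays of 1 group. Within the hCG group both were lowest on hCG 5, by 0.81 log2 units below the group mean for Npy and by 0.34 for Npy1r. Both were highest on hCG 6, by 0.99 above the group mean for Npy and by 0.32 for Npy1r. Within the Control group both were lowest on Control 7, by 0.53 below the mean for Npy and by 0.87 for Npy1r. With 3 arrays a group this is a description, and no test was made of it.

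**Figure D2:**
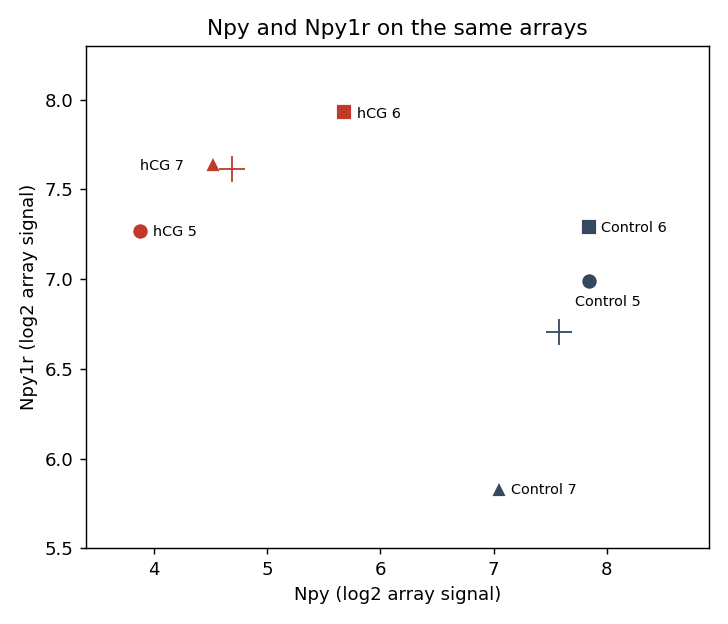
Log2 array signal of Npy (horizontal axis) and Npy1r (vertical axis) on the same 6 arrays, hCG in red and Control in dark blue; crosses mark group means. The hCG mean lies to the left of and above the Control mean, while within each group the array lowest for Npy (hCG 5, Control 7) is also lowest for Npy1r.

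The receptor genes Npy2r and Npy5r gave no signal that stood out from the floor. Npy2r, which encodes the receptor found mostly on nerve endings, had 1 probe set (1387613_at), with log2 values of 1.51, 1.59 and 1.61 on hCG arrays 5, 6 and 7, against 1.75, 1.70 and 1.48 on Control arrays 5, 6 and 7. Of all probe sets, 13.6% had a lower mean. The groups overlapped, and without the filter limma gave a change of -0.072 (SE 0.095, adjusted p = 0.772).

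Npy5r, the receptor known for its part in feeding, had 2 probe sets, both near the floor. The brighter (1369246_a_at) read 1.80, 1.44 and 1.58 on hCG arrays 5, 6 and 7, against 1.41, 1.48 and 1.58 on Control arrays 5, 6 and 7. The dimmer (1387497_at) lay between 1.36 and 1.48 on hCG arrays and between 1.29 and 1.59 on Control arrays. Groups overlapped in both, with changes of 0.12 (SE 0.11, limma adjusted p = 0.664 without the filter) and 0.019 (SE 0.10, adjusted p = 0.953). Npy5r is the nearest protein-coding neighbour of Npy1r on chromosome 16 of the RefSeq assembly and is read from the opposite strand. Of this adjacent pair, Npy1r gave clear signal and Npy5r did not.

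Dpp4 was likewise near the floor. Its brighter probe set (1387084_at) read 1.88, 1.74 and 1.80 on hCG arrays 5, 6 and 7, against 1.91, 1.85 and 2.01 on Control arrays 5, 6 and 7, and 21.9% of probe sets had a lower mean. The groups overlapped, with a change of -0.11 (SE 0.083, limma adjusted p = 0.552 without the filter). The dimmer probe set (1368163_at) read 1.52, 1.47 and 1.47 on hCG arrays and 1.44, 1.34 and 1.37 on Control arrays. Its groups were apart by 0.029 log2 units in the other direction (change 0.10, SE 0.073, adjusted p = 0.549). At this signal the arrays cannot show whether the Dpp4, Npy2r or Npy5r transcripts differ, or whether they are present.

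The genes around the peptide were described through 7 lists, with 92 genes beside the 5 members, of which 84 had a probe set and 41 were bright enough to test. Of these 41, limma called 1 higher and 0 lower, and their median log2 change was -0.063. Of all 10424 genes tested, each by its brightest probe set, 177 were called (1.70%), 96 higher (0.921%) and 81 lower (0.777%), and the median was 0.030. At an unadjusted p under 0.05 the numbers were 4 of 7 tested maturation genes, 3 of 10 peptidases, 6 of 11 Dpp4 substrates and partners, 1 of 6 signalling genes and 1 of 6 other neuropeptides, beside 22.9% of all tested probe sets.

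Among ligands of the same family, Pyy, the gut hormone peptide YY, lay between 1.60 and 1.69 on hCG arrays and between 1.48 and 1.61 on Control arrays. Ppy, which encodes pancreatic polypeptide, lay between 2.10 and 2.33 on hCG arrays and between 2.18 and 2.46 on Control arrays, so both were below the filter. The remaining receptor measured, Npy4r, which prefers pancreatic polypeptide, was just above it. Its values were 3.07, 2.93 and 3.08 on hCG arrays, against 3.19, 2.99 and 2.97 on Control arrays, a difference of -0.023 (SE 0.095, limma adjusted p = 0.913) whose sign turned without Control 5 (0.045) or without hCG 6 (0.026).

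Of the 7 tested genes of peptide maturation, 6 had a lower mean in hCG spheres, and 0 passed limma's test over all probe sets. Their median log2 change was -0.25, and in 4 of them the groups did not overlap, beside 29.3% of all tested probe sets. Furin, a convertase of the secretory pathway that cuts many precursors, read 5.27, 6.22 and 5.64 on hCG arrays 5, 6 and 7, against 6.90, 6.87 and 7.10 on Control arrays 5, 6 and 7. All 3 hCG values lay below all 3 Control values, and the difference was -1.25 log2 units (SE 0.23, limma adjusted p = 0.0526). Without hCG 6, the hCG array of highest Furin signal, the change was -1.51 and passed (adjusted p = 0.0323). Furin also passed under a stricter filter that removed the dimmest 60% (limma adjusted p = 0.0471), with a variance trend (0.0441) and with array weights (0.00716), and did not pass under the other alternatives. The settings in which it passed called more probe sets in general than the 298 of the main analysis. These were 374 without hCG 6, 367 of 12417 under the stricter filter, 500 with the trend and 4253 with array weights.

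Cpe, the carboxypeptidase that trims neuropeptide precursors, read 9.73, 10.5 and 10.2 on hCG arrays 5, 6 and 7, against 10.8, 11.0 and 10.8 on Control arrays 5, 6 and 7. Its difference of -0.71 (SE 0.20, limma adjusted p = 0.104) did not pass. The other enzymes of the list that were tested, named here after their values were seen, were the convertase Pcsk5 (-0.48), the carboxypeptidase Cpd (-0.25) and the amidating enzyme Pam (-0.13). Furin, Cpe and Pcsk5, like Npy and Npy1r, were lowest on hCG 5 and highest on hCG 6 within the hCG group. Of the other tested genes of the list, Cpd was highest on hCG 7, and Pam, Pcsk1n and Vgf were highest on hCG 5. The share of all genes with this order was not counted. The neuroendocrine convertase Pcsk2 and the granule proteins Chga, Chgb, Scg2 and Scg3 were below the filter. Pcsk1n (-0.026, limma adjusted p = 0.904) and Vgf (0.22, adjusted p = 0.327) of the same list were tested, and Vgf was the gene with a higher mean. Pcsk1 had no probe set naming it alone and was not measured.

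**Figure D3:**
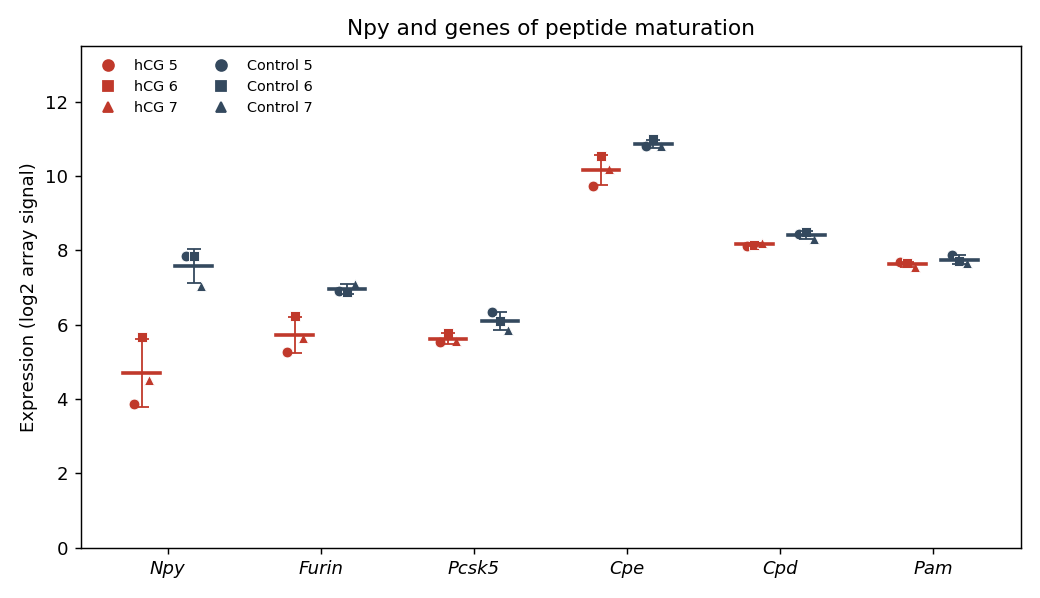
Log2 array signal of Npy and of the 5 tested enzymes of precursor maturation, hCG arrays in red and Control arrays in dark blue, with the mean and SD (n = 3 arrays per group). The hCG values lie below the Control values for Npy, Furin, Pcsk5, Cpe and Cpd, and overlap for Pam; none of these enzymes passed limma's test.

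Of the peptidases related to Dpp4 or able to cut small peptides, 10 were tested and 0 passed limma's test, with a median log2 change of -0.042. Fap, the fibroblast protease closest to Dpp4, read 8.47, 8.06 and 8.40 on hCG arrays, against 7.56, 7.92 and 7.89 on Control arrays. These values did not overlap, and the difference was 0.52 (SE 0.15, limma adjusted p = 0.112). Mme, the membrane enzyme neprilysin, read 5.85, 6.24 and 5.78 on hCG arrays, against 7.29, 6.62 and 6.29 on Control arrays, a difference of -0.78 (SE 0.26, limma adjusted p = 0.146). Fap was thus well above the filter in spheres in which Dpp4 was below it.

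Among substrates and partners of Dpp4, 11 were tested, with a median of -0.016. Cxcl12, a chemokine that Dpp4 inactivates, rose. It read 8.33, 8.66 and 8.24 on hCG arrays, against 7.53, 7.74 and 7.36 on Control arrays, a rise of 0.87 log2 units (SE 0.15, limma adjusted p = 0.0466). The call was lost without Control 5, Control 6, hCG 5, hCG 6 or hCG 7 (limma adjusted p 0.112, 0.117, 0.129, 0.0571 and 0.192). Of all tested probe sets, 374 were called without hCG 6 and 0 in each of the other settings just named. The change stayed between 0.75 and 0.97 with 1 array left out. Cxcr4, the Cxcl12 receptor, differed by 1.39 (SE 0.31, limma adjusted p = 0.0677), and the chemokine Ccl22, another Dpp4 substrate, by -0.996 (SE 0.19, limma adjusted p = 0.0561). Without Control 7 both passed, at limma adjusted p = 0.00662 for Cxcr4 and 0.0422 for Ccl22. In that setting 1064 probe sets were called, against 298 in the main analysis.

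Downstream of the receptors, 6 genes were tested and 0 passed limma's test, with a median of -0.11. The smallest p belonged to the adenylyl cyclase Adcy5 (-0.22, SE 0.09, limma adjusted p = 0.195) and the arrestin Arrb1 (-0.15, SE 0.09, adjusted p = 0.371). Gnai2, an inhibitory G protein subunit, named after its values were seen, lay between 7.85 and 7.92 on hCG arrays and between 7.88 and 8.41 on Control arrays. Of 24 other neuropeptide and peptide hormone genes with a probe set, 18 were below the filter and 0 of the 6 tested passed. Adm, the vasodilator adrenomedullin, differed by 0.50 (SE 0.13, limma adjusted p = 0.0966) and Apln, the ligand of the apelin receptor, by 0.60 (SE 0.27, limma adjusted p = 0.237).

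**Figure D4:**
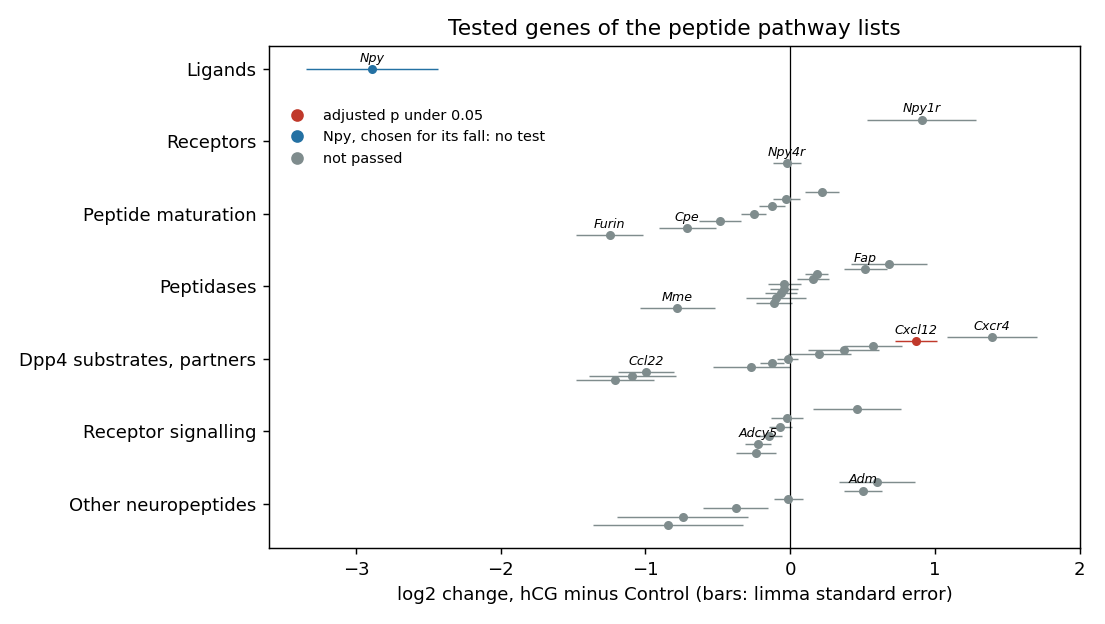
Log2 change, hCG minus Control, of each tested gene in the 7 lists, with the limma standard error; red marks an adjusted p under 0.05, grey genes that did not pass, and blue Npy, which was chosen for its fall. Npy stands at -2.89, Cxcl12 at 0.87 is the only red point, and Furin is the lowest of the maturation genes at -1.25.

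Markers of the cells that could carry Npy were read on the same arrays, as the sum of linear signal over the list. Of 12 neuron markers with a probe set, 8 were below the filter, among them Th and Dbh, the noradrenaline-synthesis enzymes of sympathetic nerves. Their sum was 119.6 to 150.9 on hCG arrays, against 154 to 223 on Control arrays, so the sum was lower on all hCG arrays, as Npy was, although the groups overlapped in each of the 4 markers tested. The synaptic gene Snap25, 1 of the 4 tested, read 4.58, 5.40 and 4.71 on hCG arrays 5, 6 and 7, against 6.87, 6.29 and 4.95 on Control arrays 5, 6 and 7, which overlap. Its change was -1.14, against -0.10 for Tubb3, -0.35 for Slc18a2 and 0.23 for Uchl1, so the lower sum rests largely on this 1 gene. Schwann cell markers summed to 91.1 to 147 on hCG arrays, against 127 to 160 on Control arrays. Neuroendocrine markers, 5 of 7 below the filter, summed to 43.4 to 45.3 on hCG arrays, against 41.7 to 46.0 on Control arrays.

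Megakaryocyte markers summed to 92.0 to 229 on hCG arrays, against 75.6 to 96.5 on Control arrays. The platelet gene Ppbp was below the filter and Pf4 made up most of the sum (5.94, 7.27 and 7.63 on hCG arrays, against 6.01, 5.42 and 5.47 on Control arrays). Macrophage markers, 6 of 10 below the filter, summed to 205 to 261 on hCG arrays, against 235 to 464 on Control arrays. T cells are known for surface Dpp4, and 7 of their 8 markers with a probe set were below the filter, the receptor chains Cd3e, Cd3d and Cd3g among them.

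The labelled epithelium was present, with 10 of 12 luminal and 9 of 11 basal markers above the filter, as were 8 of 9 fibroblast and 9 of 11 endothelial markers. The sum of luminal progenitor markers, like Npy, was lower on all hCG arrays (1753 to 2437, against 3457 to 4249 on Control arrays). Within the Control group this sum was highest on Control 7 (4249), where Npy was lowest. The groups were apart in 2 of the 6 progenitor markers tested, Lbp and Cd14, and overlapped in the brighter Cxcl1, Lcn2 and Csn3. This is near the 29.3% of all tested probe sets whose groups were apart. The same share stands beside the counts of markers apart given below. Limma called Lbp lower (-2.12, SE 0.22, adjusted p = 0.0329). The sum of hormone-sensing markers was also lower (153 to 238, against 245 to 285), but both markers tested, Areg and Prom1, overlapped. Of the 8 hormone-sensing markers with a probe set, 6 were below the filter, including Esr1, Pgr and Foxa1, which mark estrogen-responsive luminal cells. The part of these cells in the Npy difference was not tested. Sums of luminal markers overlapped (594 to 684 on hCG arrays, against 621 to 1404 on Control arrays), and Control 7, lowest for Npy1r, had the highest luminal sum. Of the 10 luminal markers tested, 1 had groups apart, Cd24, which limma called lower (-1.42, SE 0.15, adjusted p = 0.0329). The sum of endothelial markers was higher on all hCG arrays (384 to 412, against 142 to 235), beside the higher Npy1r mean. Within the Control group, Control 7 had the highest endothelial sum (235) and the lowest Npy1r signal (5.83). The part of endothelial cells in the Npy1r difference was not tested. The groups were apart in 8 of the 9 endothelial markers tested, and limma called 3 higher, beside 0.921% of all genes tested. The sum of fibroblast markers was higher too (17080 to 17831, against 15242 to 15806), but its members differed in direction. Limma called Lum higher (1.13, SE 0.17, adjusted p = 0.0405) and Dpt lower (-0.99, SE 0.15, adjusted p = 0.0406) in hCG spheres. Sums of basal markers (511 to 619, against 226 to 514) and of adipocyte markers (3093 to 3272, against 2778 to 3405) overlapped. All 9 basal markers tested had a higher mean in hCG spheres, beside 55.8% of all genes tested. Groups were apart in 3 of the 9, near the share over all tested probe sets, and limma called 0. Of the 3 adipocyte markers tested, the brightest, Lpl, overlapped (change 0.024). Cfd (1.01) and Fabp4 had groups apart and were higher in hCG spheres. Limma called Fabp4 (1.91, SE 0.25, adjusted p = 0.0393) but not Cfd.

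The median log2 signal of an array was between 3.44 and 3.48. Bacterial poly-A transcripts, added before labelling, averaged 4.32, 4.90 and 4.31 on hCG arrays 5, 6 and 7, against 5.43, 5.53 and 5.71 on Control arrays 5, 6 and 7 (p = 0.1 by an exact two-sided permutation test, which cannot go lower with 3 against 3). As with Npy, hCG 6 lay nearest to the Control arrays. Within the Control group, Control 7 was highest for these transcripts (5.71) and lowest for Npy (7.04). Hybridisation spiked transcripts averaged 7.29, 7.55 and 7.38 on hCG arrays, against 7.56, 7.50 and 7.78 on Control arrays. These overlapped, with a difference of -0.21 (p = 0.2 by the same permutation test). The poly-A transcripts were lower on every hCG array, so this difference and the treatment cannot be told apart here. The part of the poly-A difference in that of Npy was not tested.

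The genes most like Npy were ranked by Pearson's r over the 6 arrays among the other 10423 genes tested. The first 5 were Wdr45, an autophagy gene (r = 0.9970), the desmosome-linked Ppl (0.9969), the MAP kinase phosphatase Dusp2 (0.9969), the glutaredoxin Glrx (0.9962) and the transcriptional repressor Bcl6 (0.9961). Their log2 changes were -0.35, -1.17, -2.90, -1.15 and -0.66. An r over 0.9 was reached by 512 genes, which is 4.91%, and since the groups are far apart for Npy, r mostly follows the group difference. On all 5, as for Npy, hCG 6 was the highest hCG array and Control 7 the lowest Control array. At so high an r this order follows largely from the ranking and is no separate finding. For the brighter Dpp4 probe set the first 5 were Gtf3c1, Zfp869, Clec2l, Hacd3 and Tlcd4 (r from 0.983 to 0.995), but the Dpp4 values span so little, near the floor, that this order is not a finding.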

How the data were processed

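The deposited values are log2 expression for 31099 probe sets on 6 arrays; RMA, MAS5 and limma are named per the submitters' processing notes, without roles. The log base and the normalization between arrays were inferred from the values, which ran from 0.74 to 13.1. Labelling used 2 cycles of amplification, per the labels' protocols. The 57 Affymetrix control probe sets and the dimmest 40% of the others (mean over all arrays below 2.67) were left out, which left 18625. Probe sets were named where the annotation gave 1 gene (20826; 436 named several and 9780 none), and 20758 symbols were updated through Entrez numbers (RefSeq, GRCr8).

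The contrast hCG minus Control was fitted with limma 3.58.1 in R 4.3.3 (lmFit, then eBayes, two-sided), and p-values were adjusted by Benjamini-Hochberg across the tested probe sets, at a threshold of 0.05. P-values measure the spread between these arrays, which may in part be technical, and the number of arrays limits the precision. The fit was tested on simulated data. Members and lists were chosen with earlier results of these data known. Named list genes were those called and the 2 of smallest p per list. Alternatives were other filters, normalizations, variance models, array weights, the array number as a block, and each array left out.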

Additional observations from a re-analysis of the deposited data

How the results depend on the processing

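The log2 changes of Npy, Npy1r, Npy2r and Npy5r kept their direction under every alternative run and moved by less than the spread between arrays or stayed on the same side of the threshold. Leaving out the dimmest 60% of probe sets removes Npy2r, Npy4r, Npy5r and Dpp4 and so gave no value for them. Beside the omissions of an array, Npy lay between -3.19 (array weights) and -2.87 (median centring), and Npy1r between 0.63 (array weights) and 0.92. With 1 array left out, Npy lay between -3.38 and -2.48, Npy1r between 0.47 and 1.20, Npy2r between -0.16 and -0.017, Npy5r between 0.021 and 0.20, and Dpp4 between -0.15 and -0.072. Dpp4 was 0.10 by its dimmer probe set and -0.0064 as the mean of both. The number of probe sets called was 298 in the main analysis, 4253 with array weights, 500 with a variance trend and 1 with the array number as a replicate block. It was between 0 and 1064 with 1 array left out: 0 without Control 5, Control 6, hCG 5 or hCG 7 (3433, 3360, 2860 and 2545 at an unadjusted p under 0.05), and 1064 without Control 7. The cause was not tested. Called list genes numbered 12 with array weights, against 1 in the main analysis, and between 0 and 4 with 1 array left out, and Cxcl12 also missed the threshold with cyclic loess (adjusted p = 0.0506). The change of Npy4r lay between -0.062 and 0.045 with 1 array left out, and its sign turned without Control 5 (0.045) and without hCG 6 (0.026). Over all tested probe sets, arrays of the same number did not deviate together (correlations of -0.087, 0.13 and 0.0015 for numbers 5, 6 and 7). These correlations cannot show whether the number stands for a pairing. Under the block the changes of Npy and Cxcl12 were the same, with smaller SE (0.35 and 0.092). Neither was called under it (limma adjusted p 0.0573 and 0.0545). The call of Npy was also lost with 4 of the 6 omissions of an array (adjusted p between 0.0323 and 0.210 over the 6). Below a log2 signal of 2.67 the arrays limit what can be said of Npy2r, Npy5r and Dpp4.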

Other observations

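Of the other neuropeptide genes, Penk, which encodes the enkephalin precursor, was bright in both groups. It is named here after its values were seen: 10.6, 11.0 and 10.8 on hCG arrays 5, 6 and 7, against 11.7, 11.0 and 10.9 on Control arrays 5, 6 and 7, which overlap (change -0.38, SE 0.23, limma adjusted p = 0.376). Calcb, which encodes a calcitonin gene-related peptide, varied within both groups, at 3.97, 5.18 and 4.39 on hCG arrays and 4.31, 5.46 and 6.29 on Control arrays (change -0.84, SE 0.52, adjusted p = 0.387).

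The genes most like Npy1r over the 6 arrays, a ranking added after its values were seen, were Pdcd10, Tet2, Zfp111, Rbm25 and Tmem39a (Pearson's r from 0.988 to 0.993). Control 7 was the lowest of the 6 arrays for each of them, which follows from the ranking, since Npy1r itself was lowest there. Their log2 changes were between 0.19 and 0.26. An r over 0.9 with Npy1r was reached by 223 of 10423 genes (2.14%).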
